A study of Mus musculus with 12 samples.

Results

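Trp53 and 8 genes that the p53 protein is known to switch on were followed in female primordial germ cells of the mouse, the embryonic precursors of eggs, from embryos at day E14.5. The 9 genes were taken by name from a deposited table of read counts with 35976 gene rows, and all 9 passed the filter on low counts and were among the 16166 genes tested. The 3 mutant groups were HxD (genotype Tet1HxD/HxD, a Tet1 allele without catalytic activity), KO (the knockout, Tet1-/-) and V (Tet1V/V, an allele described as stalling at 5-hydroxymethylcytosine). The fourth group was WT. Each group had 3 libraries, written here as HxD1 to WT3 by the numbers in the sample titles. All groups shared the Oct4-GFP reporter by which the cells were sorted, the sex and the stage. RNA came from 5000 cells, and libraries were made from poly(A) RNA selected on oligo d(T) beads. TET1 is a dioxygenase that oxidizes 5-methylcytosine in DNA, and the design sets its knockout beside 2 alleles that alter its catalysis. Whether replicate libraries stand for different embryos or litters is not stated, so p-values reflect only how far these libraries differ, part of which may be technical.

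p53 is a transcription factor that is kept scarce by the ubiquitin ligase Mdm2 and accumulates when DNA is damaged or when ribosome assembly or nutrient supply fails. Accumulated p53 binds paired copies of a short palindromic element near its target genes and raises their transcription. The targets stop the cell cycle, repair or protect the cell, start apoptosis, or feed back to lower p53 again. Primordial germ cells are a cell type in which p53 is known for removing damaged or misplaced cells.

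Total counts ranged from 18471158 to 29495313 per library. Gene capture was uneven: KO3 had a count for 12568 genes and HxD3 for 17614. CPM are read counts per library size, with TMM normalization. Of the 2936 genes at a mean of 1 to 5 CPM, 13.3% to 20.6% were at 0 in the WT libraries. The share was higher in HxD1 (43.7%), KO3 (45.7%), KO1 (27.2%) and V2 (24.4%). It was lower than in WT in HxD3 (1.77%), V3 (2.08%), KO2 (2.59%), HxD2 (4.94%) and V1 (9.81%). Tet1 transcript itself was at 221.7 to 285.8 CPM in HxD, 80.8 to 158.3 CPM in KO, 192 to 225.7 CPM in V and 91.4 to 215 CPM in WT. Its level in KO overlapped WT, and which part of the gene was deleted is not stated, so the counts do not check the KO labels. All 10 germ cell markers had counts in every library, with a summed level of 3336 to 4057 CPM. The 17 markers of gonadal somatic, endothelial and blood cells other than Pecam1, which germ cells also express, summed to 7.50 to 21.7 CPM in HxD, 7.29 to 20.3 CPM in KO, 10.6 to 39.6 CPM in V and 9.88 to 45.7 CPM in WT. In such bulk libraries fewer cells of a type and less RNA per cell cannot be told apart.

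Of the 9 genes, 1 rose in HxD (Ccng1), 3 rose in KO (Ccng1, Cdkn1a and Gtse1) and 1 rose in V (Ccng1), and none fell, each set against the same 3 WT libraries (edgeR quasi-likelihood test, Benjamini-Hochberg adjusted p under 0.05 over all tested genes). Over all 16166 tested genes, the share called higher was 0.00619% in HxD, 0.724% in KO and 0.0680% in V, and the share called in either direction was 0.0309% in HxD, 1.22% in KO and 0.155% in V. Ccng1 was thus the single gene of the whole table called higher in HxD. The 9 genes were chosen with earlier results of these data known, so the shares describe them and do not test them. The median log2 fold change over the 9 genes was 0.52 in HxD, 0.76 in KO and 0.41 in V, beside medians over all tested genes of -0.01 in HxD, -0.02 in KO and 0 in V. Of the 9 genes, 4 had every HxD library above every WT library, 5 had every KO library above and 5 had every V library above. Over all tested genes, 6.43% of genes did so in HxD, 8.17% in KO and 8.70% in V. With the 3 mutants averaged against WT, Ccng1 and Cdkn1a rose, where 0.588% of all tested genes were called higher and 1.22% were called in either direction. Ccng1, Cdkn1a and Zmat3 had all 9 mutant libraries above all 3 WT libraries, where 1.79% of all tested genes did.

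**Figure D1:**
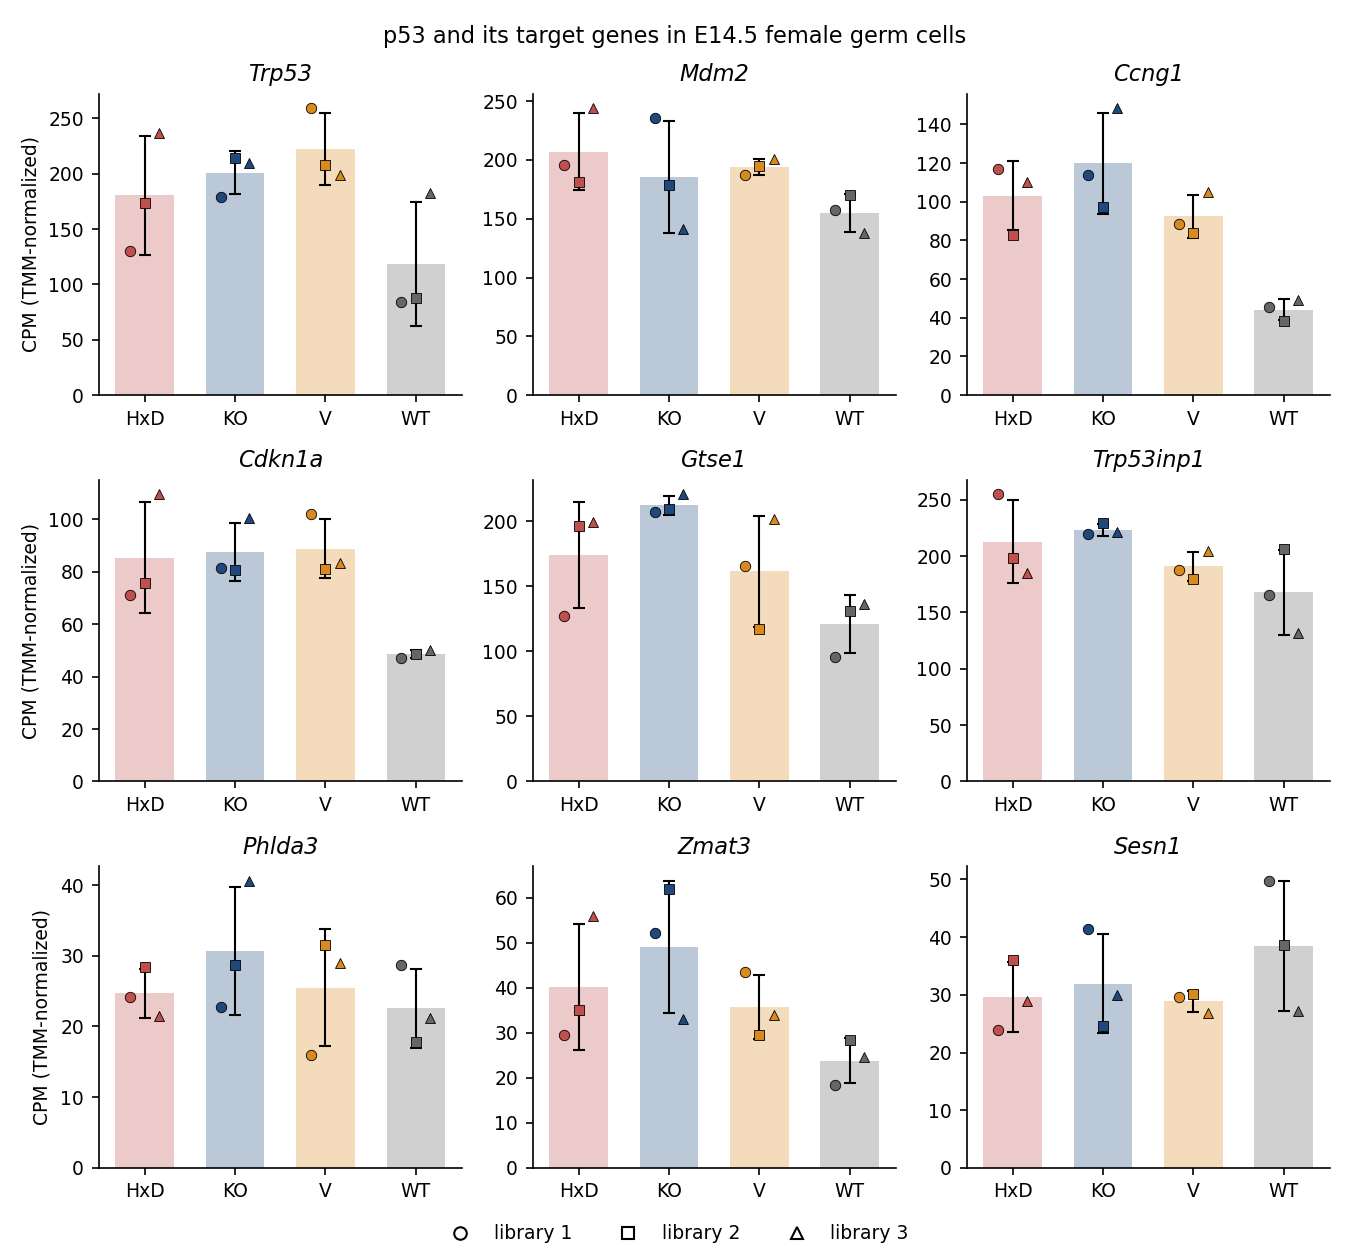
TMM-normalized CPM of Trp53 and the 8 target genes in HxD, KO, V and WT. Bars are means, error bars are SD and points are the 3 libraries of a group; in Ccng1 the mutant libraries sit between 82.7 and 148.6 CPM and the WT libraries between 38.2 and 49.0 CPM.

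Levels of different genes were set side by side per kilobase of merged exons, with lengths from the GENCODE M21 annotation. In WT, Gtse1 was the most abundant of the 9 at 44.2 ± 8.04 CPM per kilobase (SD, n = 3), and its 3 libraries lay above those of Mdm2. Mdm2 (30.5 ± 3.17), Trp53 (29.3 ± 13.8) and Trp53inp1 (25.9 ± 5.78) followed and overlapped one another. Phlda3 (14.47 ± 3.56), Cdkn1a (13.65 ± 0.426), Ccng1 (12.6 ± 1.57) and Sesn1 (9.675 ± 2.83) formed a lower group whose neighbours overlapped, and Zmat3 was lowest at 2.08 ± 0.439 CPM per kilobase. Among 14491 tested genes with a length, the WT levels ran from the 34.6th percentile for Zmat3 to the 92.2nd for Gtse1. In the mutants the order among the lower genes was different. Ccng1 stood at 29.4 ± 5.14 CPM per kilobase in HxD, 34.1 ± 7.46 in KO and 26.3 ± 3.20 in V, and in each mutant all its libraries lay above those of Phlda3.

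Trp53 encodes p53 itself. It was at 130.6, 173.7 and 237.0 CPM in HxD1 to HxD3, at 179.3, 214.5 and 209.7 CPM in KO1 to KO3, at 259.6, 208.3 and 199.1 CPM in V1 to V3, and at 84.2, 88.2 and 183.0 CPM in WT1 to WT3. V alone lay wholly above WT. WT1 and WT2 were the lowest of the 12 libraries, while WT3 fell among the mutant libraries, which gave WT the widest spread of any group for this gene (coefficient of variation 47.2%, against 29.6% in HxD, 9.47% in KO and 14.7% in V). The log2 fold change against WT was 0.61 ± 0.24 (standard error) in HxD, 0.76 ± 0.24 in KO and 0.91 ± 0.24 in V, and none was called (edgeR, adjusted p = 0.592, 0.125 and 0.12). With WT3 left out, all 3 were called, at 1.07 in HxD (edgeR, adjusted p = 0.0422), 1.22 in KO (adjusted p = 0.00435) and 1.37 in V (adjusted p = 0.0044), now against 2 WT libraries. No other fit without a single library called a mutant, with log2 values down to 0.36 in HxD, 0.57 in KO and 0.71 in V. With the mutants averaged, the value was 0.76 ± 0.20 (edgeR, adjusted p = 0.0616). DESeq2 called it at 0.72 (adjusted p = 0.0328) and limma-voom at 0.83 (adjusted p = 0.0262). It was called in 2 of 12 fits that left out a library, those without WT3 or HxD1 (without HxD1 0.82, edgeR, adjusted p = 0.0304). The other fits had an adjusted p of up to 0.449 (edgeR). It was not called with DESeq2 size factors in the edgeR fit (adjusted p = 0.0739) or with a minimum mean of 5 CPM (adjusted p = 0.0852). With no filter on low counts Trp53 was called in KO (0.74; edgeR, adjusted p = 0.0112), in V (0.91, adjusted p = 0.00136) and with the mutants averaged (0.75, adjusted p = 0.000927). A processed copy, Trp53-ps, shares a stretch of 353 bases at 97.7% identity with Trp53 transcripts, so reads of that stretch are uncertain.

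Mdm2, the ligase that marks p53 for destruction and is itself a p53 target, was not called in any mutant. Its level was 195.7, 181.5 and 244.3 CPM in HxD, 235.9, 178.6 and 141.1 CPM in KO, 187.0, 194.8 and 200.7 CPM in V, and 157.8, 170.0 and 138.0 CPM in WT. HxD and V lay above WT in all 3 libraries, whereas KO3 fell inside the WT range. The log2 fold changes of 0.42 ± 0.19 in HxD, 0.25 ± 0.19 in KO and 0.32 ± 0.19 in V were not called (edgeR, adjusted p = 0.673, 0.585 and 0.603). Mdm2 transcripts share stretches of 101 to 143 bases at 95% identity or more with 63 other genes, so part of its count is uncertain.

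Ccng1 encodes cyclin G1, a p53 target that brings a phosphatase to Mdm2 and so feeds back on p53. It showed the largest difference of the 9 genes in each mutant. It was at 116.7, 82.7 and 110.3 CPM in HxD, at 113.8, 97.3 and 148.6 CPM in KO, at 88.4, 83.9 and 105.2 CPM in V, and at 45.4, 38.2 and 49.0 CPM in WT. The lowest mutant library, HxD2, was well above the highest WT library, WT3. The means were 103.2 ± 18.05 CPM in HxD, 119.9 ± 26.2 in KO, 92.5 ± 11.2 in V and 44.2 ± 5.52 in WT (SD, n = 3). Ccng1 rose 2.33-fold in HxD (log2 fold change 1.22 ± 0.21, SE; edgeR, adjusted p = 0.0153). It rose 2.71-fold in KO (1.44 ± 0.21; edgeR, adjusted p = 0.000653) and 2.09-fold in V (1.06 ± 0.21; edgeR, adjusted p = 0.0335). With the mutants averaged the fold was 2.37 (edgeR, adjusted p = 0.000278), higher in 9 of 9 libraries. The KO call and the call with the mutants averaged held when each of the 12 libraries was left out in turn, with log2 values of 1.25 to 1.57 and 1.15 to 1.32. The HxD call was lost without HxD1, HxD3, WT1 or WT2 (adjusted p up to 0.105), and the V call without V1, V3, WT1 or WT2 (up to 0.227). With a minimum mean of 5 CPM both were lost (adjusted p = 0.0585 in HxD and 0.08 in V), and the V call was lost with limma-voom (adjusted p = 0.0742) and with only V and WT in the fit (adjusted p = 0.0515). With the 3 libraries HxD1, KO1 and KO3, which captured few genes, left out together, the value was 1.13 in HxD (adjusted p = 0.086) and 1.14 in KO, then a single library (adjusted p = 0.085).

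RefSeq windows of 300 bases around the transcription start (250 before it and 50 after, build GRCm38.p6) were at hand for 7 of the 9 genes, with 10 start sites. They were searched on both strands for the p53 decamer, the palindromic unit of which the p53 response element holds a pair, written here by its name. An exact decamer was in 8.36% of all 32851 windows, and 2 exact decamers with a spacer of at most 13 bases were in 0.0731%. Adjacent decamers with at most 1 mismatch in all, a pattern chosen after the Ccng1 sequence was seen, were in 0.067% of windows. Ccng1, on which the pattern was chosen, had such an adjacent pair, and so did a start site each of Cdkn1a and Gtse1. The windows of Trp53, Mdm2, Phlda3 and Sesn1 had no such adjacent pair, and Trp53inp1 and Zmat3 were not searched. At least 1 exact decamer was in a window of Trp53, Mdm2, Ccng1, Cdkn1a, Gtse1 and Sesn1, and none was in that of Phlda3. Only start 1 of Cdkn1a had 2 exact decamers with a spacer of at most 13 bases. A match describes letters in a window and does not show that p53 binds there. The 250 bases before the Ccng1 start (minus strand, chr11:40755287-40755536) are shown because Ccng1 carried the largest change; capitals mark the adjacent pair, 195 to 176 bases before the start.
Ccng1: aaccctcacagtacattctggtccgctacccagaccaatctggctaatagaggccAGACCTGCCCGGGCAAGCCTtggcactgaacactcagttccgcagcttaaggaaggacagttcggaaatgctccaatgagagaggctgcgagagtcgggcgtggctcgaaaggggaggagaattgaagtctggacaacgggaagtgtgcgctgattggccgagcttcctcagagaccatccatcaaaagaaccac

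Cdkn1a encodes p21, the inhibitor of cyclin-dependent kinases through which p53 stops the cell cycle. Its level was 70.9, 75.7 and 109.5 CPM in HxD, 81.5, 80.8 and 100.4 CPM in KO, 101.9, 81.2 and 83.3 CPM in V, and 47.0, 48.5 and 49.99 CPM in WT. All 9 mutant libraries lay above the WT libraries, which were close together (coefficient of variation 3.12%). The means were 85.4 ± 21.0, 87.6 ± 11.1 and 88.8 ± 11.4 CPM in HxD, KO and V, and 48.5 ± 1.51 CPM in WT (SD, n = 3). The folds against WT were 1.76 in HxD, 1.81 in KO and 1.83 in V, and that in KO alone was called (log2 fold change 0.85 ± 0.21; edgeR, adjusted p = 0.0395). HxD had 0.82 ± 0.21 (edgeR, adjusted p = 0.234) and V had 0.87 ± 0.21 (edgeR, adjusted p = 0.078; called by DESeq2 at 0.84, adjusted p = 0.0314). An adjusted p also depends on how many other genes changed in the same comparison. With the mutants averaged Cdkn1a rose 1.80-fold (log2 0.85 ± 0.18; edgeR, adjusted p = 0.0151).

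The KO call of Cdkn1a was lost without KO1, KO2, KO3, V2, V3, WT1 or WT2 (adjusted p up to 0.143), with limma-voom (adjusted p = 0.0712), with only KO and WT in the fit (adjusted p = 0.0772) and with a minimum mean of 5 CPM (adjusted p = 0.0507). With HxD1, KO1 and KO3 dropped it was also lost, at a log2 fold change of 0.74 with KO2 as the single KO library (adjusted p = 0.316). The call with the mutants averaged was lost without WT1 or WT2 (adjusted p up to 0.119). Part of the Cdkn1a count is uncertain: stretches of 100 to 262 bases at 95% identity or more occur in 97 other genes. The longest is in AC167363.2, a gene on the opposite strand that overlaps 7.68% of the Cdkn1a exon bases. The next longest, of 165 bases, is in Ctcfl.

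The mouse Cdkn1a gene has 2 annotated starts in these windows, and they differ in the pattern searched. Both upstream stretches are printed for that contrast, on the plus strand, with capitals for p53 decamers. Start 1 (chr17:29090729-29090978) has a decamer 73 to 64 bases before the start and an adjacent pair 51 to 32 bases before it. It has 2 CpG in 300 bases, where the median of all windows was 7. Start 2 (chr17:29093519-29093768) has 23 CpG and no decamer in the window. The table counts whole genes, so transcripts from the 2 starts cannot be told apart.
Cdkn1a start 1: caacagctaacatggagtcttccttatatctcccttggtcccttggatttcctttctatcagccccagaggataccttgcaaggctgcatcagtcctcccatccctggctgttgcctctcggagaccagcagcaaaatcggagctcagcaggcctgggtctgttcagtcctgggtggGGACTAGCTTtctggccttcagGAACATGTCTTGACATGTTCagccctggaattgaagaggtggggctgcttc
Cdkn1a start 2: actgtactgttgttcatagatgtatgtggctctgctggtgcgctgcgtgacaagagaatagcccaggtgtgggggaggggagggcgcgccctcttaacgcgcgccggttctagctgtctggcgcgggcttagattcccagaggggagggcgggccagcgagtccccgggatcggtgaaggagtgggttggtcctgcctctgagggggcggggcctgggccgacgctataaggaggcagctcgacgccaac

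Gtse1 encodes a microtubule-associated protein made in S and G2 phase that can carry p53 out of the nucleus and lower its activity, and it is also a p53 target in the mouse. Its level was 127.1, 196.5 and 199.0 CPM in HxD, 206.9, 209.7 and 220.7 CPM in KO, 165.7, 117.0 and 201.5 CPM in V, and 95.9, 131.0 and 136.6 CPM in WT. KO was the tightest group (coefficient of variation 3.43%) and lay above every library of the other groups, whereas HxD1 and V2 fell among the WT libraries. Gtse1 rose 1.75-fold in KO (log2 fold change 0.81 ± 0.21; edgeR, adjusted p = 0.0478). It was at 0.52 ± 0.21 in HxD (edgeR, adjusted p = 0.592) and 0.41 ± 0.21 in V (edgeR, adjusted p = 0.531), not called. The KO call stood near the threshold and held in 3 of 12 fits that left out a library, those without HxD1, V2 or WT3, with an adjusted p of up to 0.27 in the other fits. Its adjusted p was 0.0567 with DESeq2 size factors in the edgeR fit and 0.0617 with a minimum mean of 5 CPM. With HxD1, KO1 and KO3 dropped the log2 fold change was 0.79, with KO2 as the single KO library (adjusted p = 0.272). The start of Gtse1 with the adjacent pair lies on the plus strand of chromosome 15, and the pair, in capitals as a whole, spans the last base before the start to base 19 after it.
Gtse1 pair: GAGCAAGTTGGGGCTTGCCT

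Because Gtse1 is a cell cycle gene, 18 genes of G2 and mitosis were summed per library. The sum was 5460, 5098 and 5505 CPM in HxD, 5405, 6240 and 4831 CPM in KO, 5621, 5230 and 5313 CPM in V, and 3838, 4704 and 5715 CPM in WT. WT1 and WT2 were the lowest of the 12, and WT3 was above all mutant libraries but KO2. None of the 18 genes was called in any comparison with WT, with medians of 0.16 in HxD, 0.26 in KO and 0.32 in V. WT1 was the lowest library in both the sum and Gtse1, and KO2 had the highest sum and the second highest Gtse1 level. KO3 had the highest Gtse1 level and the lowest sum of the 9 mutant libraries, and WT3 had the second highest sum and a Gtse1 level below 7 of the 9 mutant libraries. The part of these genes in the Gtse1 result was not tested.

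**Figure D2:**
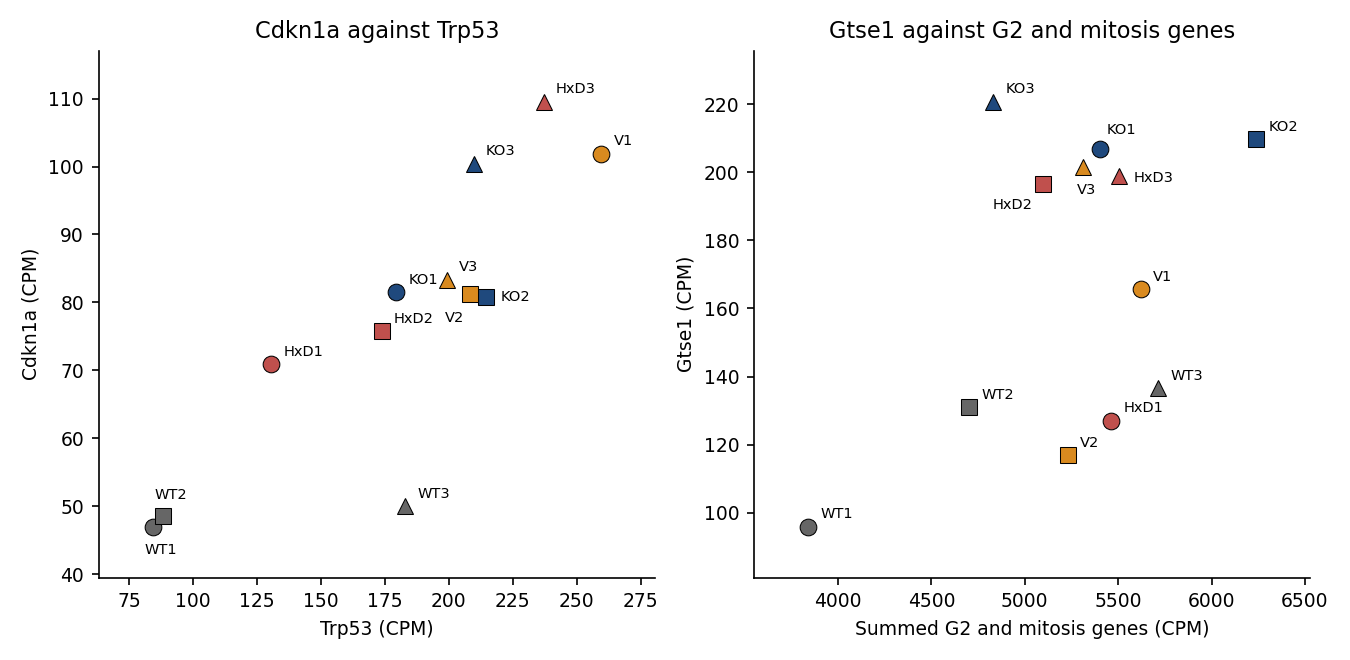
Left, Cdkn1a against Trp53 in CPM; right, Gtse1 against the summed CPM of 18 G2 and mitosis genes; 1 point per library, coloured by group, with axes that do not start at 0. WT3 had Trp53 at 183.0 CPM, inside the mutant range, with Cdkn1a at 49.99 CPM, below all mutant libraries.

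Trp53inp1, a p53 target whose product helps p53 activation and autophagy, was at 254.8, 198.0 and 185.4 CPM in HxD, 219.4, 229.4 and 221.4 CPM in KO, 187.9, 179.9 and 204.5 CPM in V, and 165.5, 206.1 and 131.4 CPM in WT. KO lay above WT in every library, with a coefficient of variation of 2.37%, while HxD and V overlapped WT. The log2 fold changes were 0.34 ± 0.18 in HxD, 0.41 ± 0.18 in KO and 0.19 ± 0.18 in V (adjusted p by edgeR of 0.722, 0.322 and 0.862).

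Zmat3, a zinc finger RNA-binding protein that p53 induces, had all 9 mutant libraries above WT. Its level was 29.5, 35.0 and 56.0 CPM in HxD, 52.2, 61.9 and 33.1 CPM in KO, 43.4, 29.5 and 33.9 CPM in V, and 18.4, 28.4 and 24.7 CPM in WT. The lowest mutant libraries stood close to WT2, and the spread within the mutants was wide. Its log2 fold change was 0.75 ± 0.30 in HxD, 1.04 ± 0.30 in KO and 0.58 ± 0.30 in V (adjusted p by edgeR of 0.598, 0.0892 and 0.55), so the size in KO was second to Ccng1 among the 9 genes but was not called. Zmat3 shares stretches of 105 to 142 bases at 95% identity or more with 8 other genes.

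Phlda3, whose product competes with Akt for membrane lipids and restrains it, did not separate the groups. Its level was 24.1, 28.4 and 21.5 CPM in HxD, 22.8, 28.7 and 40.6 CPM in KO, 16.01, 31.5 and 28.9 CPM in V, and 28.7, 17.8 and 21.2 CPM in WT. Its log2 fold changes were 0.13 ± 0.35 in HxD, 0.44 ± 0.35 in KO and 0.18 ± 0.35 in V (adjusted p by edgeR of 0.999, 0.614 and 0.962), and the 95% interval in KO ran from -0.24 to 1.12.

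Sesn1, a sestrin that restrains mTORC1 signalling, was the single gene of the 9 with a value below 0 in each mutant. Its level was 24.0, 36.0 and 28.9 CPM in HxD, 41.4, 24.5 and 29.9 CPM in KO, 29.5, 30.2 and 26.8 CPM in V, and 49.8, 38.6 and 27.2 CPM in WT. The groups overlapped, with WT1 the highest library and no mutant library above it. The log2 fold changes were -0.38 ± 0.30 in HxD, -0.27 ± 0.30 in KO and -0.42 ± 0.30 in V, not called (adjusted p by edgeR of 0.896, 0.765 and 0.712).

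**Figure D3:**
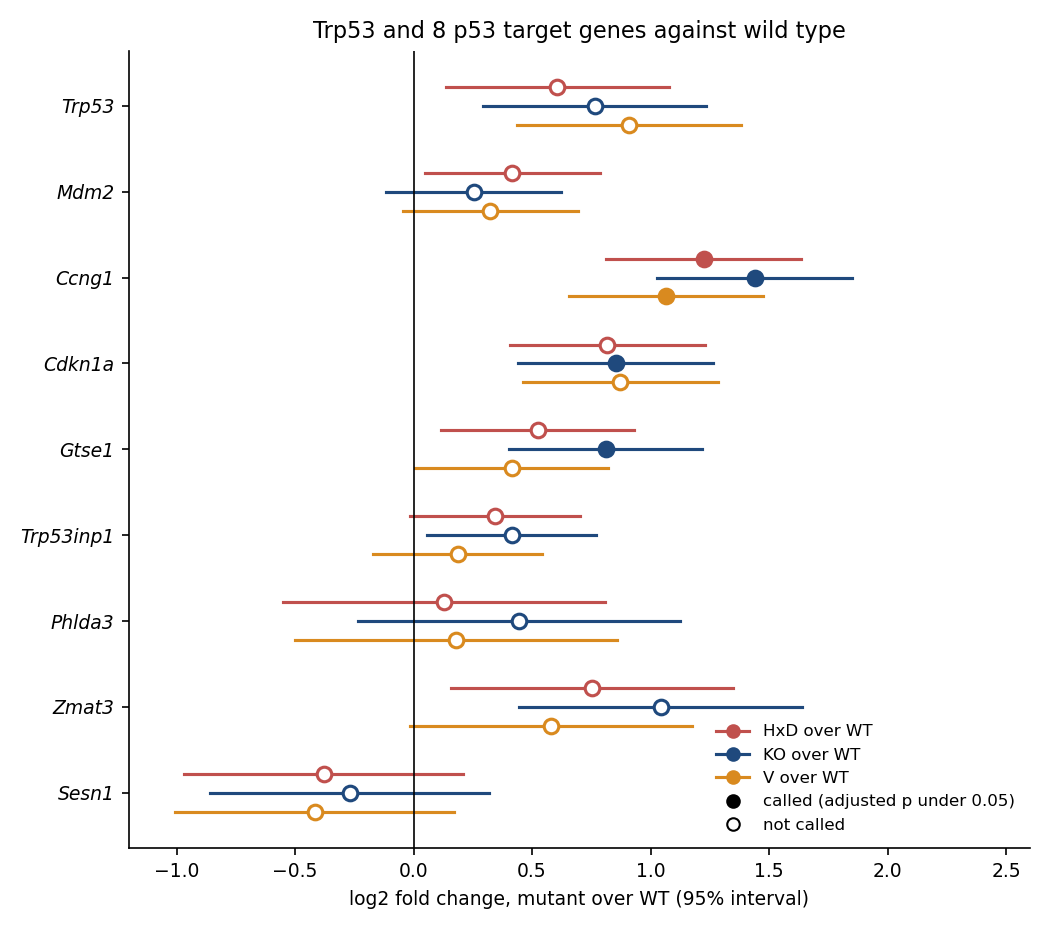
Log2 fold change of each gene in HxD, KO and V over WT with its 95% interval; filled points were called at an adjusted p under 0.05 (edgeR). Ccng1 is filled in all 3 mutants, Cdkn1a and Gtse1 are filled in KO, and Sesn1 is the gene whose 3 points lie left of 0.

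The mutants were also compared with one another, to ask whether the knockout and the HxD and V alleles differ in these genes. No gene of the table was called in any of the 3 pairs (edgeR, 0% of 16166 genes), and none of the 9 reached an unadjusted p under 0.05 in a pair. DESeq2 and limma-voom also called none of the 9. KO minus HxD was 0.22 for Ccng1 on the log2 scale (95% interval -0.19 to 0.62) and 0.04 for Cdkn1a (-0.37 to 0.44). KO minus V was 0.37 for Ccng1 (-0.03 to 0.78) and -0.02 for Cdkn1a (-0.43 to 0.39). V minus HxD was -0.16 for Ccng1 (-0.56 to 0.25) and 0.06 for Cdkn1a (-0.35 to 0.46). The intervals do not exclude differences up to these bounds. Gtse1 had every KO library above every library of HxD (difference 0.29, -0.12 to 0.69) and of V (0.40, -0.01 to 0.80), and Trp53inp1 had every KO library above V (0.23, -0.13 to 0.58). Of all tested genes, 3.72% had KO wholly above HxD and 4.92% had KO wholly above V; 1 and 2 of the 9 genes did. None of the 9 had V wholly above HxD, which 4.53% of tested genes did.

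Germ cell markers moved between the same groups. Of 10, 1 was lower in HxD, 2 were higher and 1 lower in KO, and 1 was higher and 1 lower in V. With the mutants averaged, 4 were higher and 1 lower. Of all tested genes, 0.0309% were called in either direction in HxD, 1.22% in KO and 0.155% in V. The share with the mutants averaged was 1.22%. The medians were 0.51 in HxD, 0.63 in KO, 0.60 in V and 0.61 with the mutants averaged. Dazl, a translational regulator required for meiotic entry, fell to 674.8 to 900.5 CPM in HxD, 608.5 to 846.2 CPM in KO and 553.1 to 759.7 CPM in V, against 1923, 1666 and 1207 CPM in WT1 to WT3 (edgeR, log2 fold change -1.09, -1.15 and -1.22, adjusted p = 0.0197, 0.00217 and 0.00312). Tfap2c, an early germ cell factor, rose in KO (log2 1.07; edgeR, adjusted p = 0.0262) and was at 287.2 to 321.1 CPM in KO, against 71.8, 146.5 and 215.0 CPM in WT1 to WT3. Sox2, a pluripotency factor, rose in KO (0.94; edgeR, adjusted p = 0.0156). Pou5f1, whose regulatory sequence drives the reporter used for sorting, rose in V (1.14; edgeR, adjusted p = 0.0397). Of the 3 WT libraries, WT3 was nearest to the mutants in the called genes Ccng1, Cdkn1a, Gtse1, Dazl, Tfap2c and Sox2. It was also nearest in Trp53 and Sesn1, which were not called. No single WT library was nearest throughout: WT1 was in Pou5f1 and WT2 in Zmat3. In Mdm2 and Trp53inp1, WT3 was the lowest of the 12 libraries. The part of these markers in the p53 target results was not tested.

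The p53 family holds 2 further genes. Trp73 was at 6.05 ± 3.13 CPM in HxD, 7.37 ± 1.65 in KO, 6.43 ± 1.47 in V and 3.02 ± 1.24 in WT, with log2 fold changes of 1.004 in HxD, 1.29 in KO and 1.09 in V that were not called (edgeR, adjusted p = 0.926, 0.534 and 0.759). Trp63, the family member that guards oocytes later in development, had few reads: 43, 1 and 28 in HxD, 0, 4 and 0 in KO, 14, 28 and 9 in V, and 0 in all 3 WT libraries (raw counts).

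Of 24 upstream regulators of p53, none was called in any mutant, and their median log2 fold change was 0.09 in HxD, 0.00 in KO and -0.16 in V. Mdm4, the partner of Mdm2 that blocks p53 without destroying it, was at 377.8 ± 64.2 CPM in HxD, 345.2 ± 95.1 in KO, 345.3 ± 44.0 in V and 262.6 ± 68.1 in WT (log2 fold change by edgeR 0.52 in HxD with adjusted p = 0.592, 0.39 in KO with 0.415, and 0.39 in V with 0.552). It overlapped WT in every mutant. Chek2, a DNA damage kinase, and Ppm1d, a phosphatase that turns p53 signalling down, were named after their values were seen, and both lay wholly above WT in each mutant. The log2 fold change of Chek2 was 0.76 in HxD, 0.65 in KO and 0.84 in V, and that of Ppm1d was 0.68 in HxD, 0.52 in KO and 0.77 in V. With the mutants averaged neither was called (edgeR, adjusted p = 0.0787 for Chek2 and 0.0639 for Ppm1d). Sirt1, named in the same way, lay wholly below WT in each mutant (log2 fold change -0.27 in HxD, -0.30 in KO and -0.27 in V). Lying wholly above WT was seen for 6.43% of all tested genes in HxD, 8.17% in KO and 8.70% in V.

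Of 37 other p53 target genes on the list, 35 were tested, and 1 of them rose, Gadd45a in KO. The median of the 35 was 0.23 in HxD, 0.43 in KO and 0.33 in V, below the medians of the 9 genes and above those of all tested genes. Among the 24 at a mean of at least 5 CPM, a level chosen after the values were seen, it was 0.29 in HxD, 0.57 in KO and 0.49 in V, which in V is above the median of the 9. Gadd45a, which acts in growth arrest and DNA repair, was at 35.4, 38.4 and 82.8 CPM in the KO libraries, from low to high, and at 20.5, 20.9 and 25.8 CPM in the WT libraries (log2 fold change 1.22 ± 0.30; edgeR, adjusted p = 0.0419). Every KO library lay above WT, but 1 KO library stood far above the others, and the fit was not repeated without it. HxD (log2 fold change 0.55, edgeR, adjusted p = 0.732) and V (0.98, adjusted p = 0.213) also lay wholly above WT but were not called. Fas, the death receptor, had 0 counts in all 12 libraries and was not tested. Ddb2 and Tap1, of the same list and named after their values were seen, lay wholly below WT in each mutant and were not called. The log2 fold change of Ddb2 was -1.78 in HxD, -2.03 in KO and -1.80 in V. That of Tap1 was -1.67 in HxD, -2.84 in KO and -1.74 in V. Their WT means were 21.0 CPM for Ddb2 and 7.83 CPM for Tap1. How many of all tested genes lay wholly below WT was not counted.

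Among targets that act in cell death, Bax, which opens the mitochondrial outer membrane, was at 179.6 ± 37.3 CPM in HxD, 178.9 ± 29.9 in KO, 200.9 ± 33.0 in V and 130.5 ± 24.3 in WT (log2 fold change by edgeR 0.46 in HxD with adjusted p = 0.64, 0.45 in KO with 0.315, and 0.62 in V with 0.231), and only V lay wholly above WT. Bbc3, which encodes Puma, was at 17.4 ± 5.40 CPM in HxD, 23.1 ± 11.03 in KO, 19.5 ± 2.64 in V and 15.6 ± 7.77 CPM in WT (edgeR, adjusted p = 0.999, 0.587 and 0.931). Pmaip1, which encodes Noxa, had few raw counts: 11, 44 and 11 in HxD, 30, 17 and 0 in KO, 34, 0 and 35 in V, against 51, 25 and 244 in WT, of which WT3 held most. Perp, Apaf1 and Aen, named after their values were seen, were not called either. Of all tested genes, 6.43% lay wholly above WT in HxD, 8.17% in KO and 8.70% in V. Perp lay wholly above WT in each mutant (edgeR, log2 fold change 0.91 in HxD, 1.09 in KO and 0.69 in V; adjusted p = 0.592, 0.151 and 0.541). Apaf1 (0.95; edgeR, adjusted p = 0.0794) and Aen (0.94; edgeR, adjusted p = 0.0738) lay wholly above WT in KO.

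Family relatives of the 9 genes gave a comparison with genes of like sequence that are not all p53 targets. The list is not separate from the others: Sesn2 is also among the other p53 targets and Mdm4 among the upstream regulators. Of 13, 1 rose, Phlda2 in KO, and the median was -0.11 in HxD, -0.03 in KO and -0.07 in V. Among the 12 at a mean of at least 5 CPM it was -0.10 in HxD, 0.04 in KO and -0.01 in V. Phlda2, an imprinted relative of Phlda3, was at 358.5, 382.1 and 568.3 CPM in KO, from low to high, and 173.2, 235.5 and 272.6 CPM in WT (log2 0.94 ± 0.21; edgeR, adjusted p = 0.0227). Ccng2, which encodes cyclin G2 and is the closest relative of Ccng1, was at 26.9 ± 2.09 CPM in HxD, 26.1 ± 4.80 in KO, 27.7 ± 4.36 in V and 26.7 ± 8.71 in WT, with log2 fold changes of 0.01 in HxD, -0.03 in KO and 0.05 in V (standard error 0.33 each). Sesn2, a sestrin induced by stress, was at 54.0 ± 13.8, 73.9 ± 12.2 and 55.6 ± 8.396 CPM in HxD, KO and V, and at 43.8 ± 9.82 CPM in WT (log2 fold change by edgeR 0.30 in HxD, 0.75 in KO with adjusted p = 0.145, and 0.34 in V).

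**Figure D4:**
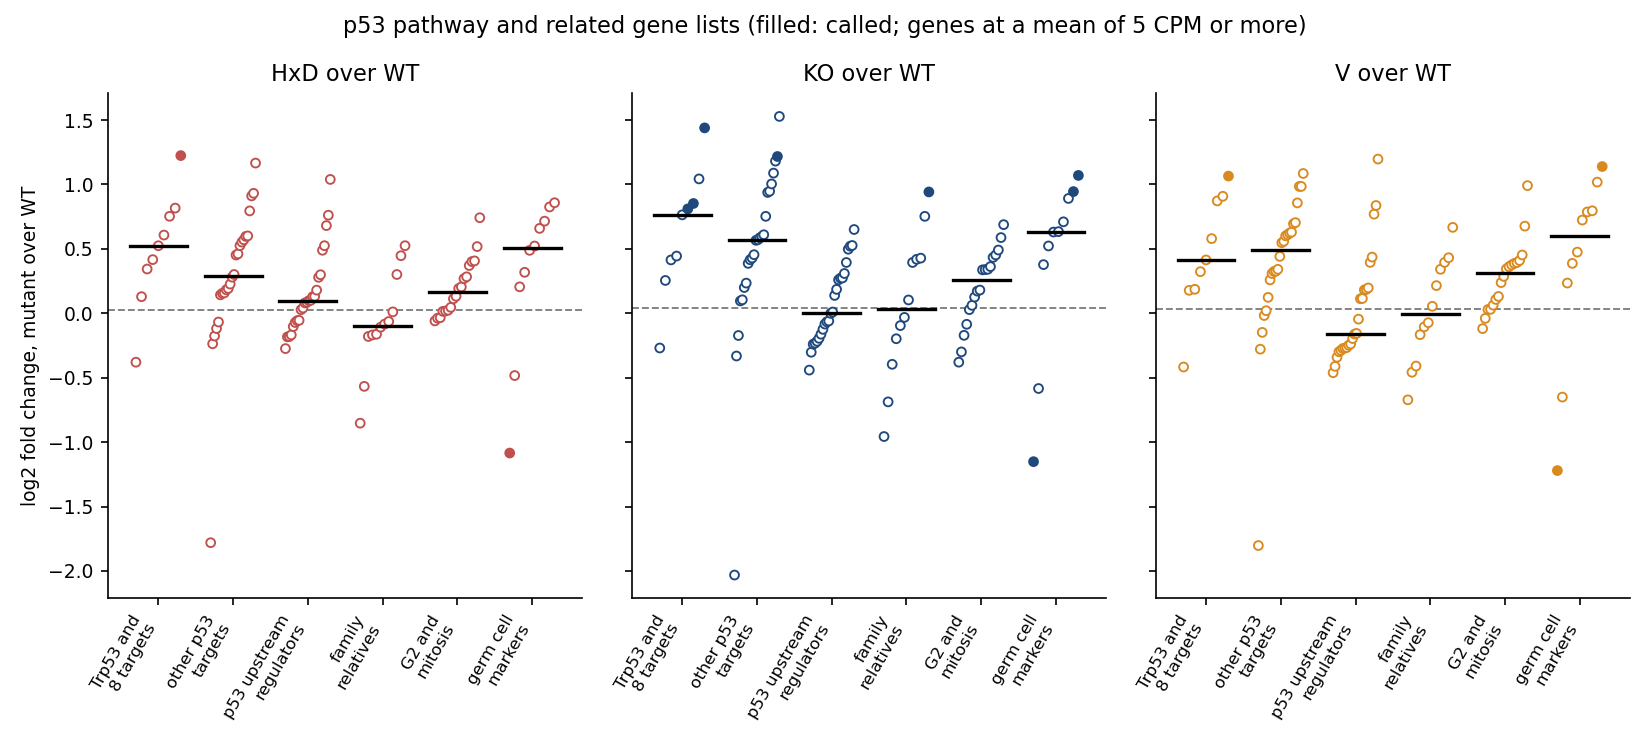
Log2 fold change over WT of Trp53 and 8 targets and of 5 related gene lists, for genes at a mean of at least 5 CPM, in HxD, KO and V. Points are genes (filled when called), black lines are list medians and the dashed line is the median of all 10402 tested genes at that level; in KO the black line of the first list is at 0.76 and the dashed line at 0.04.

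Across the 12 libraries the 9 genes did not vary as a single block. Of their 36 pairs, 26 had a positive Pearson r of log2(CPM + 1), with a median of 0.39. Once each group was centred on its own mean, 17 were positive, with a median of -0.07, so the likeness between pairs lay mostly in the difference between groups. Trp53 and Cdkn1a were among the pairs that kept it, with r = 0.84 (Spearman rho 0.85) over 12 libraries and 0.61 within groups. Ccng1 and Cdkn1a had 0.87 and 0.34, and Trp53 and Trp53inp1 had 0.01 and -0.82. These are descriptions over libraries that share groups, with no test.

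Among 10393 other genes at a mean of at least 5 CPM, the gene most like Ccng1 in pattern was Tia1, an RNA-binding protein gene (r = 0.93, Spearman rho 0.91, n = 12 libraries), followed by Eif4e (0.91), Taf7 (0.90), Cnn3 (0.90) and Psat1 (0.90). Trp53 was most like Gnl3, the nucleolar protein nucleostemin (r = 0.97, rho 0.86), Mdm2 like Stam (0.92), Cdkn1a like Col9a2 (0.94) and Gtse1 like Tfe3 (0.95). Trp53inp1 was most like Tmem108 (0.92), Phlda3 like Tspan3 (0.88), Zmat3 like the predicted gene Gm39469 (0.96) and Sesn1 like Zfp362 (0.92). Each is the highest of 10393 values over 12 libraries, so high values are present for every gene.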

How the data were processed

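For the 12 libraries the authors deposited raw counts, 1 row per gene and 1 column per library. The submitters' processing notes name featureCounts 2.0.3, STAR 2.7.10b, SAMtools 1.9, Trim Galore 0.6.7 and FastQC as tools and both GRCm39 and mm10 as builds, with no role or order. Annotation, strandedness and multi-mapping rules were not given in the sources used here.

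Groups came from the sample titles. The test was edgeR 4.0.16 in R 4.3.3 (quasi-likelihood F test, two-sided, TMM, default filterByExpr) in a single model of the 12 libraries by group, with Benjamini-Hochberg adjustment over the 16166 genes kept and calls at 0.05. Standard errors were the log2 fold change divided by the square root of F, and 95% intervals assume a normal error. CPM are TMM-normalized, and counts per library ranged from 18471158 to 29495313. Within groups, no 2 libraries matched within sampling noise (lowest chi-square per degree of freedom 29.9). DESeq2 1.42.0, limma-voom (limma 3.58.1), other normalization and filters, fits of only the groups compared, a replicate block and fits without libraries were alternatives. Leaving out HxD1, KO1 and KO3 together was chosen for their low capture in earlier results. V2, with 24.4% of the genes at 1 to 5 CPM at 0, was kept in that fit.

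The genes and the 7 lists were chosen with earlier results of these data known. The 9 genes are always named. Beside them the text names up to 4 called genes of each list and comparison, 8 pathway genes whatever their values, and the gene most like each of the 9 by Pearson r of log2(CPM + 1). Chek2, Ppm1d, Sirt1, Perp, Apaf1, Aen, Ddb2 and Tap1 were added after their values were seen, and Fas because it had no counts. Cop1 and Dglucy were matched under the older symbols Rfwd2 and 9030617O03Rik. Overlaps, near-identical stretches (BLAST, at least 95% over 100 bases) and exon lengths came from GENCODE M21, and upstream sequences from RefSeq (GRCm38.p6), which need not match the counting annotation.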

Additional observations from a re-analysis of the deposited data

How the results depend on the processing

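In HxD the 1 call among the 9 genes became 0 with a minimum mean of 5 CPM and with the libraries of low capture (HxD1, KO1 and KO3) left out, and ran from 0 to 2 when each library was left out. In KO the 3 calls became 5 with no filter on low counts, 1 with a minimum mean of 5 CPM and 0 without the libraries of low capture, which leaves KO with 1 library, assumed to vary like the others; without single libraries they ran from 1 to 4. In V the 1 call became 2 with DESeq2, 0 with limma-voom, 3 with no filter, 0 with a minimum mean of 5 CPM and 0 with only the groups compared, and ran from 0 to 2 without single libraries. With the mutants averaged the 2 calls became 4 with no filter and ran from 1 to 4 without single libraries; the fit of only the groups compared is here the main fit and was not repeated. In the 3 pairs of mutants 0 of the 9 were called under each alternative run. The causes were not tested. DESeq2 size factors left all counts within 1.5 times, although Gtse1 in KO missed the threshold.

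Among single genes, 1163 alternative values kept direction and side of the threshold, 39 lost and 18 gained a call, and 31 changed sign, none of them called. Against WT the sign changed for Phlda3 alone, with a range without single libraries of -0.016 to 0.339 in HxD and of -0.00323 to 0.423 in V. Between mutants it changed without single libraries in KO minus HxD for Cdkn1a (-0.0814 to 0.245), Mdm2 (-0.374 to 0.000438), Sesn1 (-0.121 to 0.274), Trp53 (-0.0299 to 0.394) and Trp53inp1 (-0.0272 to 0.221), in KO minus V for Cdkn1a (-0.13 to 0.0901), Mdm2 (-0.281 to 0.0939) and Sesn1 (-0.0841 to 0.306), and in V minus HxD for Cdkn1a (-0.0616 to 0.281), Gtse1 (-0.305 to 0.0724), Mdm2 (-0.18 to 0.0485), Phlda3 (-0.134 to 0.294), Sesn1 (-0.169 to 0.126) and Zmat3 (-0.354 to 0.149). Without the libraries of low capture the sign also changed for Cdkn1a (KO minus HxD -0.20, V minus HxD -0.0616) and Sesn1 (KO minus HxD -0.40, KO minus V -0.24).

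Equal replicate numbers did not pair the samples: the correlation of their deviations had a median of 0.01 over 18 pairs, a lowest value of -0.17 and 2 values over 0.1. With the number as a replicate block, V had 2 calls and Trp53 was called in KO (0.83; edgeR, adjusted p = 0.0363), V (1.001, adjusted p = 0.0252) and the mutants averaged (0.82, adjusted p = 0.0118); the 7 calls made without the block were all kept.

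The standard errors of Zmat3, Phlda3 and Sesn1 against WT (0.30 to 0.35) were the widest of the 9.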
